A study of Schizosaccharomyces pombe with 36 samples.

Results

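The replication of the *RTS1-rRFB* locus was compared between fission yeast cells that carried a tandem pair of *RTS1* barriers and cells that carried a single *RTS1*, in both cases with the barrier on. The libraries were chosen by their labels, and both pairs are *rnh201-d* and *pku70*+. They are the Pol δ and Pol ε libraries of the tandem strains, and the Pol δ and Pol ε libraries of the strains with a single *RTS1*. These are 4 of the 36 samples of the series, with 1 library per strain and polymerase. The design asks whether a fork that has been restarted by homologous recombination responds again to a further *RTS1* placed a short distance downstream. The other single-*RTS1* pairs, with the barrier on or off, are used to show the spread of each value. So is a single-*RTS1* pair with *rtf1* under the *adh1* promoter (adh-*rtf1*+). The test over all windows also fits the single-*RTS1* pairs with endogenous *rtf1*.

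All of these strains were haploid *Schizosaccharomyces pombe*. The Pol δ strains carried *cdc6-L591G* and the Pol ε strains *cdc20-M630F*, alleles that leave extra ribonucleotides in the strand the polymerase makes. In the tandem and single strains *rnh201* was replaced by a kan cassette, so that the ribonucleotides stay in the DNA. The native *RTS1* was replaced by a phleomycin cassette, *rtf1* was left at its own locus, and the auxotrophic alleles were *ade6-704*, *leu1-32* and *ura4-D18*. The genotype listed for the tandem strains also has *smt0*, a deletion at the mating-type locus. The single strains compared do not list it, so within this comparison its part cannot be told apart from that of the construct. In the paper's strain list, *smt0* is also given for the Pol δ and Pol ε strains with *rnh201-RED*, described below, and a single *RTS1*. Each value rests on 1 strain isolate per polymerase. The error given with a share is a 95% Clopper-Pearson interval, which covers counting error only and not the spread between cultures.

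*RTS1* is a polar replication fork barrier that arrests forks travelling in one direction when the protein Rtf1 is bound. In the constructs used here it is oriented to arrest forks that move from left to right, and forks that do not resume are rescued by a fork from the other side or restarted by homologous recombination. A canonical fork uses Pol ε on the leading strand and Pol δ on the lagging strand, whereas a fork restarted by recombination uses Pol δ on both. A rightward canonical fork therefore puts Pol ε on the Watson strand, a leftward converging fork puts Pol ε on the Crick strand, and a restarted rightward fork puts Pol δ on both. The rRFB, an array of ribosomal DNA fork barriers to the right of *RTS1*, slows the converging forks.

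On the reference ASM294v3 the construct lies on chromosome 2 between 851805 and 851806, between *clr6*, a histone deacetylase gene, and *spo9*, a gene needed for spore formation. The rRFB lies between 862455 and 862456, in the gene SPBC36.11, 10.65 kb to the right. The construct holds *RTS1* followed by the *ura4* marker gene of uracil biosynthesis, and in the tandem strains the additional *RTS1* follows *ura4*. *ura4* thus lies past the only *RTS1* in the single strains and past the first of the pair in the tandem strains, while the native sequence to the right lies past every *RTS1* in both.

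The sequence of *RTS1* itself is shown because the tandem construct adds a copy of it. In the reference, *RTS1* spans 841 bp of chromosome 2, from 2113054 to 2113894, and it holds 4 copies of a 22-base repeat that are identical at 18 positions. The copies are shown on the plus strand with 20 bases on each side, and capitals mark the identical positions. They start 84, 122 and 71 bp after one another. The orientation of the sequence within the constructs was not read here.
RTS1 repeat copy 1 at chr2:2113284-2113345: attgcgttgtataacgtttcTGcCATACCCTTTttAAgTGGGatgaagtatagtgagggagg
RTS1 repeat copy 2 at chr2:2113368-2113429: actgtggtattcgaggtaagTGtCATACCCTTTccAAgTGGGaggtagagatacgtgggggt
RTS1 repeat copy 3 at chr2:2113490-2113551: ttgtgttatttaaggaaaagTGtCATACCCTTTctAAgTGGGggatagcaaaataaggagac
RTS1 repeat copy 4 at chr2:2113561-2113622: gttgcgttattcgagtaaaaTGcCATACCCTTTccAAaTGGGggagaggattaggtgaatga
A search of the 3 chromosomes on both strands for the consensus TGNCATACCCTTTNNAANTGGG found these 4 matches and 0 outside *RTS1*. Purines made up 67.9% of the plus strand up to the end of the last copy and 49.3% of the 292 bases after it.

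The tandem Pol δ and Pol ε libraries held 14153795 and 10214102 counts, and the single ones 11419114 and 12581298. Counts over *rtf1*, relative to its flanks, were 0.817 and 0.796 in the tandem pair (Pol δ and Pol ε) and 0.692 and 0.602 in the single pair. Over *rnh201* they were between 0.122 and 0.309 in these 4 libraries, and over *pku70* between 0.869 and 0.963. The 4 *rnh201-d* single-*RTS1* libraries labelled *pku70-d* also had counts over *pku70*, between 0.685 and 0.874 of the flanks, so they are named here by their label only. Counts over *ura4* in the construct were 0.974 and 0.419 of the construct's flanks in the tandem pair (Pol δ and Pol ε) and 1.21 and 0.289 in the single pair. The shares over *ura4* below use the construct only, and counts at the native position of *ura4* were not measured.

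The deposited positions run on genomes that include the constructs, and the tandem genome is longer. A search in steps of 20 bp for the shift that best aligned the counts of the pairs gave 880 bp right of the construct, close to the length of *RTS1*, and 20 bp to its left, where nothing was added. Between the construct and the rRFB the correlation of the log counts of the pairs was 0.0205 without the shift and 0.867 with it. Right of the locus on chromosome 2, the SD of the difference in Watson Pol ε usage between the pairs fell from 12.2 to 7.52 percentage points in 300-bp bins once the shift was corrected. In 3000-bp windows it fell from 6.42 to 3.70 points. All positions below are in coordinates of the native sequence, with the added bases taken out.

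Between the construct and the rRFB, Pol ε usage was lower in the tandem pair on the Watson strand, the leading strand of rightward forks. Leftward forks put Pol δ on this strand, so the value covers forks of both directions. Watson Pol ε usage there, leaving out 600 bp beside each barrier, was 15.3% in the tandem pair (95% interval 14.5 to 16.2, from 990 Pol ε and 7587 Pol δ counts). In the single pair it was 27.8% (26.8 to 28.9, from 2166 and 5095 counts). The difference was -12.5 percentage points (-13.9 to -11.2). With the barrier off, single-*RTS1* pairs had 93.6% ± 2.00 (SD, n = 4).

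The tandem value lay below every single-*RTS1* pair with endogenous *rtf1* and the barrier on. These were 27.8% in the pair compared, 31.0% in the *rnh201-d* pair labelled *pku70-d*, 21.5% in *rnh201-RED* *pku70*+ and 23.8% in *rnh201-RED* *pku70-d*, with a mean of 26.1% ± 4.22 (SD, n = 4). *rnh201-RED* is an allele of *rnh201* that, unlike *rnh201-d*, is not a deletion. The single-*RTS1* adh-*rtf1*+ pair was lower still, at 13.3% (12.8 to 13.8). A Watson value as low as that of the tandem pair was thus also measured with a single *RTS1*, in the strain in which *rtf1* is driven by another promoter. On the Crick strand that pair differed from the tandem pair, as given below.

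**Figure D1:**
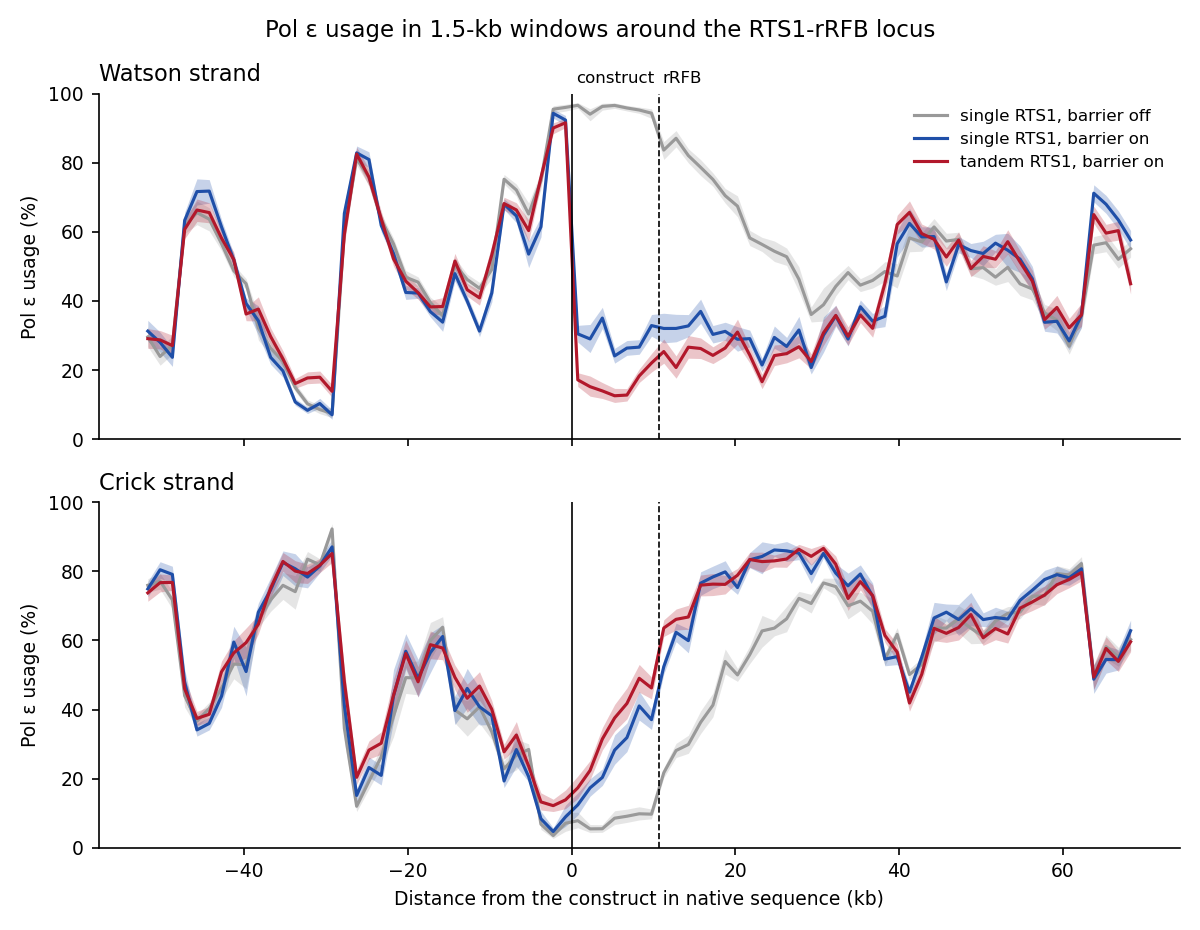
Pol ε usage (%) in 1.5-kb windows, with the Watson strand above and the Crick strand below, against distance from the construct (kb), for the tandem and single barrier-on pairs and the *rnh201-d* *pku70*+ single barrier-off pair (lines, with 95% counting intervals as bands). Between the construct and the rRFB the tandem curve lies below the single curve on the Watson strand and above it on the Crick strand.

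In windows of 1.5 kb, Watson Pol ε usage was lower in the tandem pair in 7 of 7 windows between the construct and the rRFB, with differences between -21.1 and -8.34 points. Lower here means that the 95% counting interval of the difference leaves out 0, and elsewhere in the genome 15.2% of windows were lower by this rule. The interval thus leaves out part of the spread between libraries. The largest difference lay 3 to 4.5 kb past the construct, where usage was 13.99% in the tandem and 35.1% in the single pair. Beyond the rRFB, 8 of 9 windows within 15 kb were still lower, with a median of -5.25 points. From there to 920 kb, 5 of 28 windows were lower and 4 were higher. To the left of the construct 7 of 35 were lower and 14 were higher, where 21.5% of windows elsewhere in the genome were higher. The highest of these left windows, 3 to 4.5 kb from the construct, differed by 14.3 points.

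The same order held in the genes described here that lie wholly between the barriers. Watson Pol ε usage was 17.5% in the tandem against 30.5% in the single pair over *spo9*. It was 13.7% against 27.5% over *cog2*, which encodes a subunit of a Golgi tethering complex. Over *sap61*, a splicing factor gene, it was 16.8% against 27.5%, and over *ups2* it was 22.0% against 32.9%. Past the rRFB the genes came closer together. *git7*, a gene of glucose signalling, had 28.2% against 35.5%, and *ubp15*, a ubiquitin hydrolase gene, had 25.4% against 33.2%. Over *dld2*, farthest from the construct of these, usage was 30.1% and 29.5% (difference 0.573, -3.30 to 4.43), which is not distinguishable at this depth.

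The position of *ura4* separates what lies past the first *RTS1* from what lies past both. Over *ura4*, Watson Pol ε usage was 29.8% in the tandem pair (25.8 to 34.1, from 133 Pol ε and 434 Pol δ counts) and 26.3% in the single pair (22.2 to 30.7, from 119 and 303). The difference of 3.53 points (-2.43 to 9.41) was not detectable at this depth. The 4 single pairs with the barrier on had 25.3% ± 1.42 (SD, n = 4), and the adh-*rtf1*+ pair 18.1%. The tandem value was the highest of these, and its interval overlaps those of the single pairs with endogenous *rtf1*. Its difference from the *rnh201-RED* *pku70-d* pair was 5.12 points (0.170 to 10.2), an interval that leaves out 0. Against the other pairs with endogenous *rtf1* the interval of the difference held 0.

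From *ura4* to the first 3 kb of native sequence past the construct, Watson Pol ε usage in the tandem pair fell from 29.8% to 15.1% (13.2 to 17.01), a step of -14.7 points (-19.4 to -10.3). In the single pair, where no *RTS1* lies between these stretches, it went from 26.3% to 28.6% (26.2 to 31.2), a step of 2.35 points (-2.67 to 7.13). The steps differed by -17.1 points (-23.8 to -10.4). In the other single pairs with endogenous *rtf1* the step was 6.21, 0.2799 and -1.76 points, so that the tandem step was the lowest of these. The adh-*rtf1*+ pair, which also has a single *RTS1*, had a step of -5.86 points (-8.66 to -3.22), and the tandem step was lower than it by -8.89 points (-14.2 to -3.59). From the native sequence left of the construct to *ura4*, the tandem pair stepped from 90.9% to 29.8% and the single pair from 93.6% to 26.3%. These first steps differed by 6.23 points (0.0949 to 12.3), the tandem one being the smaller. Against the other single pairs with endogenous *rtf1*, the first step differed by between -0.11 and 6.85 points, with intervals that hold 0.

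**Figure D2:**
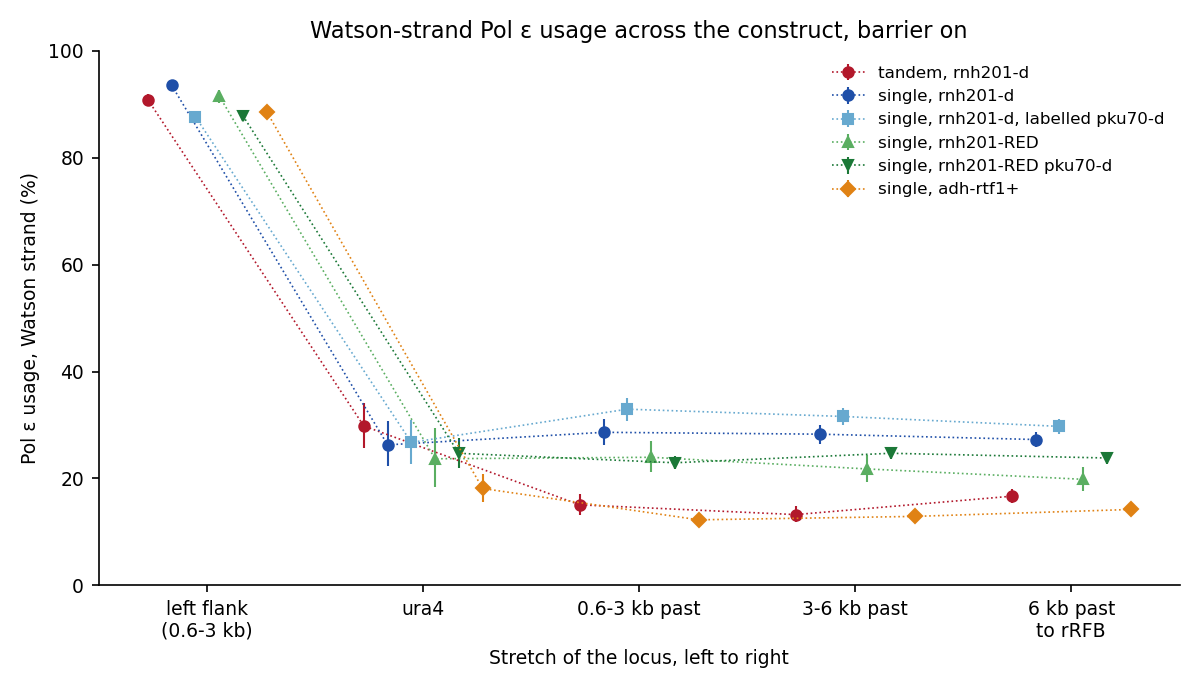
Watson-strand Pol ε usage (%) left of the construct, over *ura4* and in stretches to the right, for the tandem pair, the matched single pair, the other single pairs and the adh-*rtf1*+ pair with the barrier on, with 95% counting intervals. The tandem pair starts near the single pairs over *ura4* and lies below those with endogenous *rtf1* past the construct.

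The counts of both polymerases moved between these stretches. In counts per 300-bp bin, scaled as CPM, Watson Pol ε counts in the tandem pair went from 3.26 over *ura4* to 2.53 in the first 3 kb past the construct, while Pol δ counts went from 7.67 to 14.3. In the single pair Pol ε went from 2.36 to 3.78 and Pol δ from 6.63 to 9.41. Whether reads map equally well over *ura4* and over the native sequence was not tested, so levels cannot be taken as comparable between the stretches. The share within a stretch compares the polymerases over the same sequence.

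A check that needs no comparison between the polymerases is the share of a library's own counts that lie on the Watson strand. Between the construct and the rRFB it was 43.2% (41.2 to 45.3) in the tandem Pol ε library and 66.2% (64.5 to 67.8) in the single one. In the Pol δ libraries it was 68.3% (67.5 to 69.2) and 63.4% (62.3 to 64.4). The single Pol ε libraries with endogenous *rtf1* lay between 56.4% and 66.2%, all above the tandem one, and the adh-*rtf1*+ library had 47.3%. The single Pol δ libraries with the barrier on, adh-*rtf1*+ included, lay between 61.3% and 65.2%, all below the tandem one. In the 12 kb beyond the rRFB the Pol ε shares of the tandem and single libraries were 26.1% and 26.2%, while the Pol δ shares were 74.6% and 63.6%. The other single Pol δ libraries with the barrier on ranged from 63.0% to 77.2% there, so the tandem share lies inside their spread. Left of the construct the Pol ε shares were 89.6% and 96.2%, so that the pairs also differed there.

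**Figure D3:**
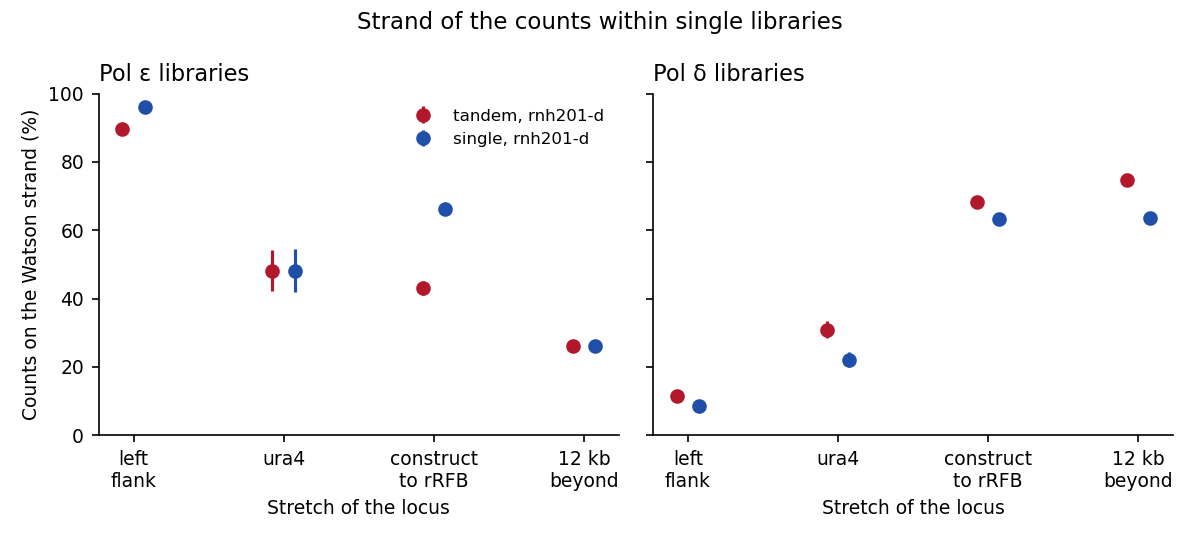
Share of each library's counts that lie on the Watson strand (%), left of the construct, over *ura4*, between the construct and the rRFB and in the 12 kb beyond, for Pol ε and Pol δ libraries, with 95% counting intervals. Between the barriers the tandem Pol ε library sits at 43.2% and the single one at 66.2%.

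On the Crick strand, which forks from the right make with Pol ε, usage rose sooner in the tandem pair. Between the construct and the rRFB, Crick Pol ε usage was 33.9% in the tandem pair (32.5 to 35.4, from 1302 Pol ε and 3514 Pol δ counts) and 25.5% in the single pair (24.1 to 26.8, from 1107 and 2943). The difference was 8.47 points (6.52 to 10.4), and 7 of 7 windows were higher, against 22.4% of windows in the rest of the genome. The single pairs with endogenous *rtf1* ranged from 18.8% to 34.8%, so the tandem value lies inside their spread. The Crick strand left of the construct also differed, with 13.0% against 5.09%, as did that over *ura4*, with 16.98% against 9.79%. Neither was set against the genome-wide line given below.

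Where converging forks take over was read from the smoothed Crick profile, as the place right of the construct at which Pol ε usage first passed 50%. It lay 9412 bp from the construct in the tandem pair (7905 to 9692) and 11417 bp in the single pair (11100 to 11678), a difference of -2006 bp (-3535 to -1582). Relative to the rRFB these positions are -1.24 and 0.767 kb. The single pairs with endogenous *rtf1* ranged from 9308 to 11417 bp, with a mean of 10353 ± 978 bp (SD, n = 4), so the tandem position lies within that range and the single pair compared has the farthest one. The adh-*rtf1*+ pair had 9589 bp, and the single pairs with the barrier off had 20114 ± 1855 bp (SD, n = 4).

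At other levels the distance between the pairs varied, and it was smallest at the highest level. The tandem pair had a narrower range of usage over the genome, given below, and these positions were not corrected for it. Crick Pol ε usage passed 25% at 2.58 kb in the tandem and 4.96 kb in the single pair, 40% at 6.19 and 9.43 kb, and 60% at 11.4 and 13.1 kb. It passed 75% at 15.9 kb (15.4 to 19.0) and 16.2 kb (15.5 to 16.7), with overlapping intervals. At 40, 60 and 75% the tandem position lay left of those of all single pairs with the barrier on. The nearest at 40 and 60% was the *rnh201-d* pair labelled *pku70-d*, at 6.82 kb (6.54 to 7.24) and 11.6 kb (11.1 to 11.8), with intervals that overlap those of the tandem pair. At 25% that pair lay farther left than the tandem pair, at 1.95 kb. Elsewhere in the genome, 92 of 120 zones where converging forks meet in the single pair could be matched in the tandem pair. Their positions differed by a median of 0.0276 kb with an SD of 0.434 kb, and 0 of the 92 differed as far as the locus did. The *rnh201-d* pair labelled *pku70-d*, with a single *RTS1*, had its position at 9308 bp at the locus, which is as far from the single pair compared as the tandem position is.

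**Figure D4:**
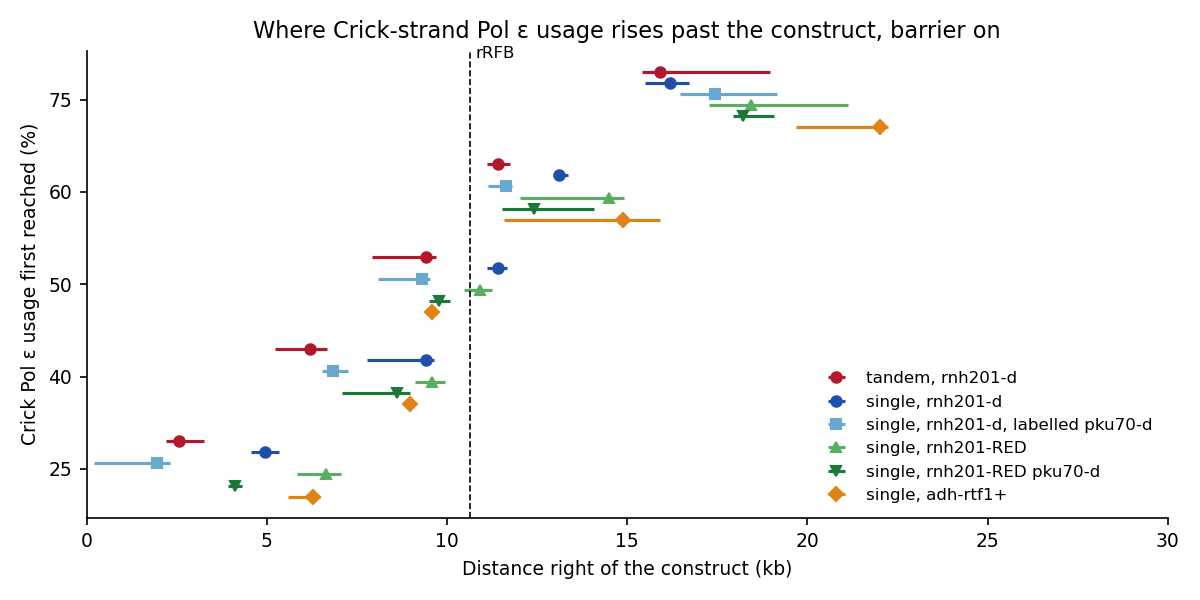
Distance right of the construct (kb) at which Crick-strand Pol ε usage passed 25, 40, 50, 60 and 75%, for the tandem pair, the single pair and the other single-*RTS1* pairs with the barrier on, with 95% counting intervals. The tandem points lie left of those of the matched single pair at 25 to 60% and meet them at 75%.

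In the 12 kb beyond the rRFB, Crick Pol ε usage was 73.7% in the tandem pair (72.7 to 74.7) and 69.2% in the single pair (68.2 to 70.2), a difference of 4.51 points (3.15 to 5.87). The 4 single pairs had 70.1% ± 0.909 (SD, n = 4), all below the tandem value. In equal windows of the genome, however, 14.7% of 1036 differed as far from 0 between the tandem and single pair. Pol δ usage averaged over both strands between the barriers was 75.4% (74.5 to 76.2) in the tandem and 73.4% (72.5 to 74.2) in the single pair. That difference of 2.03 points (0.846 to 3.21) lay within the single pairs' 73.5% ± 5.23 (SD, n = 4), and 35.0% of 1338 windows differed as far. In the adh-*rtf1*+ pair the average was 82.5% (82.0 to 82.9), above the tandem value. A change of direction among canonical forks alone does not move this average. A leftward canonical fork in place of a restarted rightward fork lowers it.

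The Watson difference stood apart from the rest of the genome. Over 1338 windows of 9300 bp outside the locus, the tandem pair differed from the single pair by 0.723 points on average with an SD of 3.05, and the central 95% of windows lay between -4.64 and 6.96. At the locus the difference was -12.5, and the lowest window elsewhere was -8.65. In 1 window (0.0747%) the difference was as far from 0, in the opposite direction. These windows are neighbours on 3 chromosomes and come from the same libraries, so they describe the spread and are not a test.

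The tandem pair had a narrower range of usage over the genome. The 5th to 95th percentiles of Watson Pol ε usage in 4148 windows of 3000 bp were 18.9 to 84.1% in the tandem and 14.1 to 85.4% in the single pair. A straight line of tandem on single usage had a slope of 0.905 and an intercept of 5.48 points. From this line, a stretch at the single pair's 27.8% would be at 30.8% in the tandem pair, and the measured 15.3% differed from that by -15.5 points. None of the 1338 windows lay as far from the line. Beyond the rRFB, the Crick value lay 5.52 points from its line (4.15 to 6.88), and 3.19% of 1036 windows lay as far. Pol δ usage over both strands between the barriers lay 5.12 points from its line (3.94 to 6.31), and 1.12% of 1338 windows lay as far. For both of these, the share of windows as far was thus smaller than without the line. Over *ura4* the distance from the line was 0.647 points (-5.31 to 6.53), and on the Crick strand between the barriers it was 5.21 points, which 4.04% of windows equalled or passed.

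**Figure D5:**
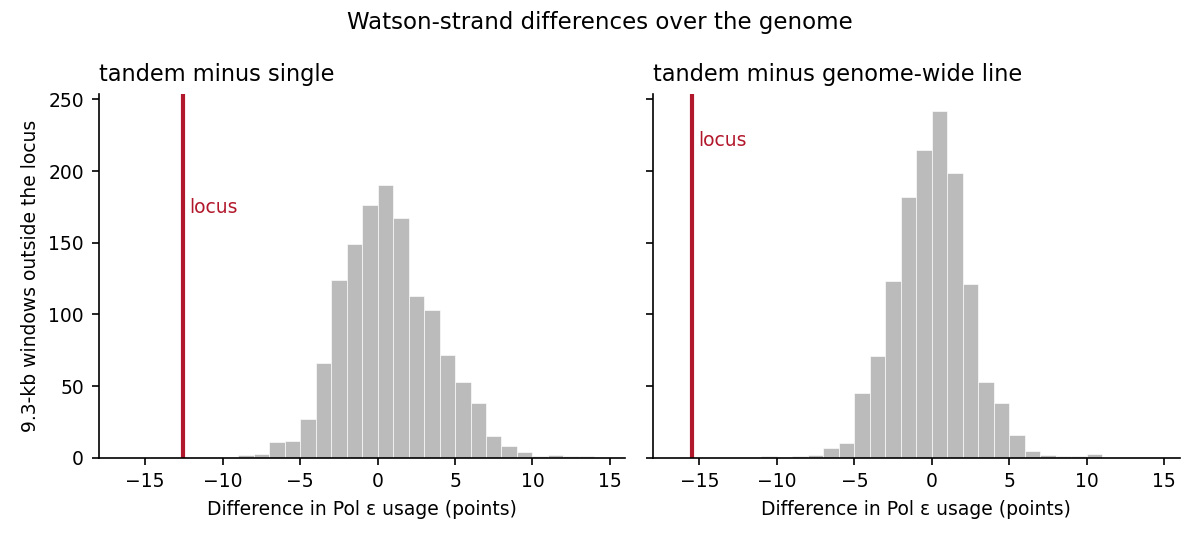
Differences in Watson-strand Pol ε usage (tandem minus single, percentage points) in windows of the genome outside the locus, each 9300 bp long, as measured (left) and after the genome-wide line was taken off (right), with bars counting windows and a line at the locus. The locus lies at -12.5 on the left, where the central 95% of windows runs from -4.64 to 6.96, and at -15.5 on the right.

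For a test over all windows, edgeR's quasi-likelihood F-test was run on counts per strand in 3000 bp, with the Pol δ and Pol ε libraries of the 8 single-*RTS1* pairs and the tandem pair, and asked whether the ratio of Pol ε to Pol δ counts differed with the tandem construct. With 1 tandem library per polymerase, that pair is assumed to vary like the single libraries. The log2 differences set the tandem pair against a fit over the 8 single pairs, not against the matched single pair alone. After Benjamini-Hochberg adjustment, 0 of 8383 windows (0%) passed 0.05 by edgeR, while 116 had an unadjusted p below 0.05. Leaving out 1 single library at a time kept the edgeR calls at 0 and moved the unadjusted count to between 57 and 440. It moved by over 1.5 times without 4 of these libraries, all Pol ε. The count was 57 without the *rnh201-d* *pku70*+ barrier-on library and 68 without the barrier-off one, 213 without the *rnh201-RED* *pku70-d* barrier-off library and 440 without the *rnh201-RED* *pku70*+ barrier-off one. DESeq2 on the same counts called 5 windows (0.0596%).

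Of the windows called by DESeq2, 3 were the Watson windows that lie wholly between the construct and the rRFB, and all 3 were lower in the tandem pair. The window from 855001 to 858000, overlapping *cog2*, had a log2 difference of -1.59 (edgeR adjusted p = 0.517, DESeq2 adjusted p = 4.82e-05). For the window from 852001 to 855000, overlapping *spo9* and *cog2*, it was -1.24 (edgeR adjusted p = 0.875, DESeq2 0.000118). For the window from 858001 to 861000, overlapping *sap61*, it was -1.06 (edgeR adjusted p = 1, DESeq2 0.0166). These windows ranked 1, 2 and 4 of 8383 by edgeR's p. The remaining DESeq2 calls were Crick windows on chromosome 1 (4602001 to 4605000, log2 difference 0.82) and on chromosome 2 (519001 to 522000, 0.96). The call at the locus thus depends on the tool.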

How the data were processed

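The authors mapped reads with Bowtie2 (version not given in the sources used here), and a custom Perl script of theirs converted them to counts. The deposited files hold raw counts per 300-bp bin and strand, on genomes that include the constructs. Their build is not given in the sources used here, and positions were set against ASM294v3 with the RefSeq annotation. Each library was divided by its total, and Pol ε usage is its scaled count over the sum of both polymerases' scaled counts. Differences of shares carry intervals combined from the 95% Clopper-Pearson bounds of each (MOVER). Watson and Crick shares between the barriers and beyond the rRFB leave out 600 bp beside each insertion, and the Crick midpoint was taken after smoothing over 11 bins. The test used edgeR 4.0.16 (limma 3.58.1, R 4.3.3) with TMM, a filter that kept windows with 10 counts or more in all libraries, and terms for polymerase, *rnh201*, *pku70*, barrier and tandem construct with the interactions of polymerase. DESeq2 1.42.0 was the alternative. In counts simulated with changed windows, edgeR recovered 22% of those changed 2-fold and 95% of those changed 4-fold, over 8383 windows. Other steps used Python 3.11.15 (numpy 2.4.6, scipy 1.17.1). Named genes are those at the construct and between the barriers, the nearest beyond the rRFB, the strain checks and the called windows. A gene that the rule names is not reported here. The libraries compared, the lists and the tests were chosen with earlier results of these data known. Nothing says that the single-*RTS1* backgrounds were grown as replicates, so their SD covers strain differences too. Alternatives changed the scaling, bins, margins, smoothing, windows and libraries. No tandem pair with the barrier off is among the samples of the series, so none was analysed here.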

Additional observations from a re-analysis of the deposited data

How the results depend on the processing

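No value turned in direction under any alternative run. The Watson difference between the construct and the rRFB was -10.8 points with libraries scaled by their median bin count, -15.003 as a mean of single-bin shares and -15.5 against the genome-wide line, an alternative chosen after seeing the data. The Crick midpoint moved by -3797 bp (-4174 to 870) when smoothed over 5 bins, so that its interval then held 0. The Crick difference beyond the rRFB was 2.08 points as a mean of single-bin shares and 2.17 with a margin of 1500 bp. The Pol δ difference over both strands was 3.57 points as a mean of single-bin shares and 5.12 against the line, and its interval held 0 with median scaling (1.08, -0.00643 to 2.18). The count of windows called was 0 by edgeR in every setting and 5 by DESeq2. Leaving out each single library in turn gave 0 to 0 calls, and leaving out the 4 libraries labelled *pku70-d* whose *pku70* counts are near the flanks, an alternative chosen after seeing the data, gave 0 calls. No paired analysis was possible because each strain and polymerase has 1 library and the labels give no replicate numbers. Leaving out a tandem library leaves no comparison. Low counts over *ura4* limit what can be told there.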
